A study of Mus musculus with 10 samples.

Results

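The genes described here encode the subunits of NF-Y, the transcription factor that binds the CCAAT box, and kinases other than JNK that are known to phosphorylate histone H3 at serine 10. The set was written as 8 genes, with 3 NF-Y subunits (Nfya, Nfyb, Nfyc) and 5 kinases (Rps6ka4, Rps6ka5, Rps6ka3, Pim1, Chuk). A gene was taken from the probe sets that carry exactly 1 gene symbol, and the probe set with the highest mean over the 10 arrays stood for it. By this rule 6 of the 8 genes were measured, among 19938 genes in all. Rps6ka4 and Chuk were not analysed here. Cultured mouse neurons, labelled as terminally differentiated and of the strain 129Sv-C57Bl/6, received either SP600125 or its solvent. SP600125, which inhibits the JNK family (kinases of the JUN N-terminus), was given to 5 samples at 25 µM, in 3 applications spaced by 2 hours. DMSO alone was given to 5 control samples on the same schedule. Within each group, drug batch 1 covers replicates a and b, and the other 3 replicates belong to drug batch 2. The study describes the numbers as different batches of SP600125. DMSO samples carry the same batch numbers. The labels used here do not say how the neurons were obtained. The labels call the replicates biological without saying whether cultures were independent, and the p-values reflect only the spread among these samples.

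NF-Y is a heterotrimer. NF-YB and NF-YC pair through histone-fold domains, and NF-YA then joins them and supplies the contact with CCAAT, so all 3 subunits are needed for binding. Phosphorylation of histone H3 at serine 10 accompanies the induction of genes in interphase cells and the condensation of chromosomes in mitosis, and different kinases place it in each setting. JNK has been reported at gene promoters in neurons formed from stem cells, with NF-Y proposed as the factor that brings it there and serine 10 of histone H3 as a substrate. The question addressed here was how far the transcripts of that factor, and of the other kinases for the same residue, differed when JNK was inhibited.

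Rps6ka3, which encodes the growth-factor-activated kinase RSK2, was the member with the largest change. It fell by 0.49 on the log2 scale. Nfyc and Nfya fell by 0.34 and 0.30, while Nfyb differed by less than its spread. Rps6ka5, which encodes the stress- and mitogen-activated kinase MSK1, rose by 0.17, and Pim1 did not pass the test. Thus 4 of the 6 measured members passed at a Benjamini-Hochberg adjusted p under 0.05 in limma with drug batch as a term, 3 of them lower and 1 higher. Of all genes 46.9% passed, 29.9% lower and 17.0% higher, so a share of this size was common on these arrays. With the arrays scaled by cyclic loess the passing members were Rps6ka3, lower, and Pim1, higher. Under that scaling 27.2% of all genes passed, 17.7% lower and 9.44% higher.

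CCAAT boxes, the sites that NF-Y binds, were looked for in the members' own promoters. RefSeq windows of 300 bases on GRCm38.p6, from 250 bases before an annotated start to 50 after it, matched 5 of the 6 measured members and gave 10 windows. The window with most CCAAT boxes is printed for the NF-Y subunits and for Rps6ka5, to show the spacing of the boxes in the genes that hold several and a subunit gene with none. Each is on the minus strand, written 5′ to 3′ along the gene, and capitals mark CCAAT or, where the box lies on the other strand, ATTGG. The positions are chr17:48400531-48400830 for Nfya, chr10:82764092-82764391 for Nfyb, chr4:120825160-120825459 for Nfyc and chr12:100725071-100725370 for Rps6ka5.
Nfya: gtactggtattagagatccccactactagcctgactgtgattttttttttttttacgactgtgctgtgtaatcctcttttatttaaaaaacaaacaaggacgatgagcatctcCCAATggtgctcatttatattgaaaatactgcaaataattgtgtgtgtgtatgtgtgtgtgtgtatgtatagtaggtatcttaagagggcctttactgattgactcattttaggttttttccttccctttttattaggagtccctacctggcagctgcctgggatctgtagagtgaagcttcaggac
Nfyb: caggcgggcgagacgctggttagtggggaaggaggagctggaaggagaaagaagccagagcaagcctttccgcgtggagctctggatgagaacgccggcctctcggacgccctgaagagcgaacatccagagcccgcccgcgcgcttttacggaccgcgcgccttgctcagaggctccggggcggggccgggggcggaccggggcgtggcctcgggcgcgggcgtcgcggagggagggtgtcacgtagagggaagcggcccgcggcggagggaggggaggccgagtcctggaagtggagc
Nfyc: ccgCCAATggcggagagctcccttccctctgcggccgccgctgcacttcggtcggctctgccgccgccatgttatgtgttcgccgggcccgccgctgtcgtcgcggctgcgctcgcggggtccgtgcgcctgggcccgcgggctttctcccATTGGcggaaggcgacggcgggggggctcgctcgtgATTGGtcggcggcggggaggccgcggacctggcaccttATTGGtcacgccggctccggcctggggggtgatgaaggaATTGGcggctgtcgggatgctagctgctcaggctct
Rps6ka5: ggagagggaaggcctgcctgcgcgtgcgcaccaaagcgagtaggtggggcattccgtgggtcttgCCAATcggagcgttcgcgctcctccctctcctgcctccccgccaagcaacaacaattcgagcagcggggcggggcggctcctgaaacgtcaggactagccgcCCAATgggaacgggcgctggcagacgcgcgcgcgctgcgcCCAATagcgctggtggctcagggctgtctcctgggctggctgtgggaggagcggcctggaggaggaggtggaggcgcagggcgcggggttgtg

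The Nfyc window held 5 boxes, 1 of them read along the gene and the other 4 on the opposite strand. A further Nfyc start had 3 and the remaining one had none. Rps6ka5 has 1 annotated window, with 3 boxes that all read along the gene, at 185, 83 and 43 bases before the start. Nfya had 1 box at 1 of its 3 starts, 137 bases before it. The single Nfyb window and both Pim1 windows had none. Among all 32851 windows 37.4% held at least 1 box, 3.37% held 3 or more and 0.271% held 5 or more. Counted by gene, 3 of the 5 members held a box in at least 1 window, as did 41.1% of 27025 genes. The shares for 3 or more and 5 or more are by window only, whereas the printed window is the one with most boxes of its gene. The AP-1 motif TGANTCA, the site bound by JUN, was found in the printed Nfya window and in no other member window, and in 7.81% of all windows. A match in these letters describes the window and does not show binding.

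**Figure D1:**
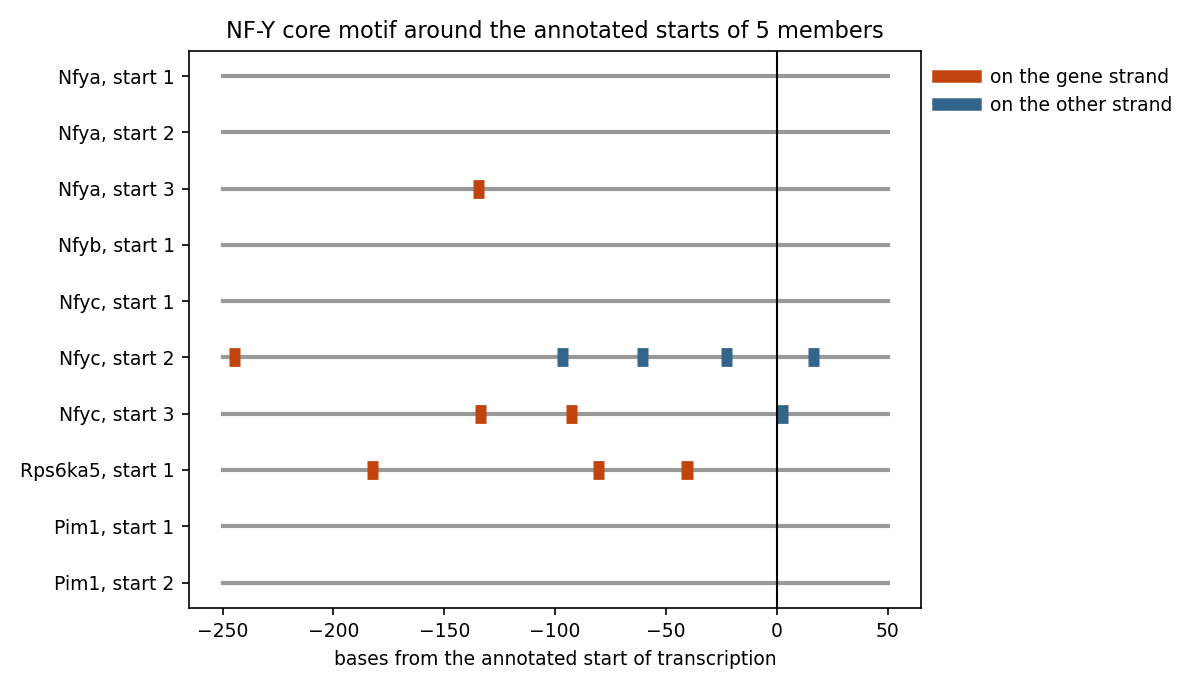
Positions of the NF-Y core motif in the 10 annotated promoter windows of 5 members, in bases from the annotated start (vertical line). Red marks lie on the gene strand and blue marks on the other strand. The second Nfyc start carries 5 marks, and the windows of Nfyb and Pim1 carry none.

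Nfya encodes the subunit that recognises CCAAT. Its log2 values were 7.35, 7.21, 7.04, 6.91 and 7.01 on SP600125 arrays a to e, against 7.33, 7.28, 7.44, 7.54 and 7.43 on DMSO arrays a to e. The batch 1 arrays of the groups overlapped, whereas the 3 SP600125 arrays of batch 2 lay below every DMSO array. The group means were 7.10 ± 0.17 after SP600125 and 7.40 ± 0.10 after DMSO (SD, n = 5 each). The change was −0.30 (SE 0.08, 95% confidence interval −0.48 to −0.12, limma adjusted p = 0.0099). The exact two-sided permutation of treatment within drug batch gave p = 0.05, where 0.0167 is the smallest p that its 120 arrangements can give. The batches gave different values. Batch 1 alone gave −0.03 (SE 0.12), where 0.00502% of all genes passed, in either direction or lower (0.00502%). Batch 2 alone gave −0.48 (SE 0.07, limma adjusted p = 0.000862), where 38.4% of all genes passed, 27.3% lower and 11.1% higher. In limma's fit across all genes, the difference between the batches was −0.45 (SE 0.12). Its interaction test gave an adjusted p = 0.478 in limma (unadjusted p = 0.00259). Over all genes 9.29% had an unadjusted interaction p under 0.05, and none passed after adjustment.

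Nfyb encodes a histone-fold subunit. On SP600125 arrays a to e it stood at 7.92, 7.81, 8.14, 7.95 and 7.91, against 8.05, 7.92, 7.93, 7.91 and 7.92 on DMSO arrays a to e. The groups overlapped, and both the highest and the lowest value came from SP600125 arrays. The means of 7.95 ± 0.12 after SP600125 and 7.95 ± 0.06 after DMSO (SD, n = 5 each) gave a change of 0.00 (SE 0.07). The 95% confidence interval of −0.15 to 0.14 leaves room for a small change either way (limma adjusted p = 0.986).

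Nfyc encodes the other histone-fold subunit. On SP600125 arrays a to e its values were 7.06, 7.21, 7.18, 7.28 and 7.31, against 7.55, 7.50, 7.51, 7.50 and 7.69 on DMSO arrays a to e. Every SP600125 array lay below every DMSO array, as was the case for 16.4% of all genes. The means were 7.21 ± 0.10 after SP600125 and 7.55 ± 0.08 after DMSO (SD, n = 5 each), with a change of −0.34 (SE 0.06, limma adjusted p = 0.00103, exact permutation p = 0.0167). Batch 1 gave −0.39 and batch 2 gave −0.31.

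The identity of that Nfyc signal is uncertain. The identifiers of this probe set lie between those of probe sets for chromosome 12 genes, with Apob next to it, and none of its 10 placed neighbours is on chromosome 4, where RefSeq puts Nfyc. RefSeq lists the pseudogene Nfyc-ps on chromosome 12, also next to Apob. For the probe sets of the other measured members, every placed neighbour was on the gene's own chromosome. Transcripts of Nfyc and Nfyc-ps therefore cannot be told apart by this probe set. A further Nfyc probe set, whose 10 neighbours are all on chromosome 4, gave 5.22, 5.34, 5.20, 5.45 and 5.19 on SP600125 arrays a to e, against 5.61, 5.36, 5.54, 5.74 and 5.50 on DMSO arrays a to e. Here the groups overlapped through SP600125 replicate d and DMSO replicate b. The change of −0.27 (SE 0.08) passed in a limma fit over all 35556 probe sets (adjusted p = 0.0294, exact permutation p = 0.0167), in which 36.3% of probe sets passed and 19.1% fell. Both probe sets were thus lower after SP600125. The further probe set is dim, with means of 5.28 after SP600125 and 5.55 after DMSO. The 95th percentile of olfactory receptor genes, which stand near background, was 5.26 in DMSO samples.

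The changes of the subunits were compared in pairs. The first Nfyc probe set stood for Nfyc, so its uncertain identity holds for these pairs as well. The change of Nfyb exceeded that of the first Nfyc probe set by 0.34, and the exact permutation test of this difference within drug batch gave p = 0.0167, or 0.0333 adjusted over the 4 pairs compared. Without DMSO replicate a, b or e or SP600125 replicate a, the adjusted value was 0.0667. With an array left out fewer arrangements are possible, so the test moves in coarser steps. The changes of Nfya and Nfyb differed by −0.30 (exact permutation p = 0.1, adjusted 0.133). Those of Nfya and Nfyc differed by 0.04 (exact permutation p = 0.717, adjusted 0.717). These values compare changes within each gene and say nothing of the relative amounts of the subunits.

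**Figure D2:**
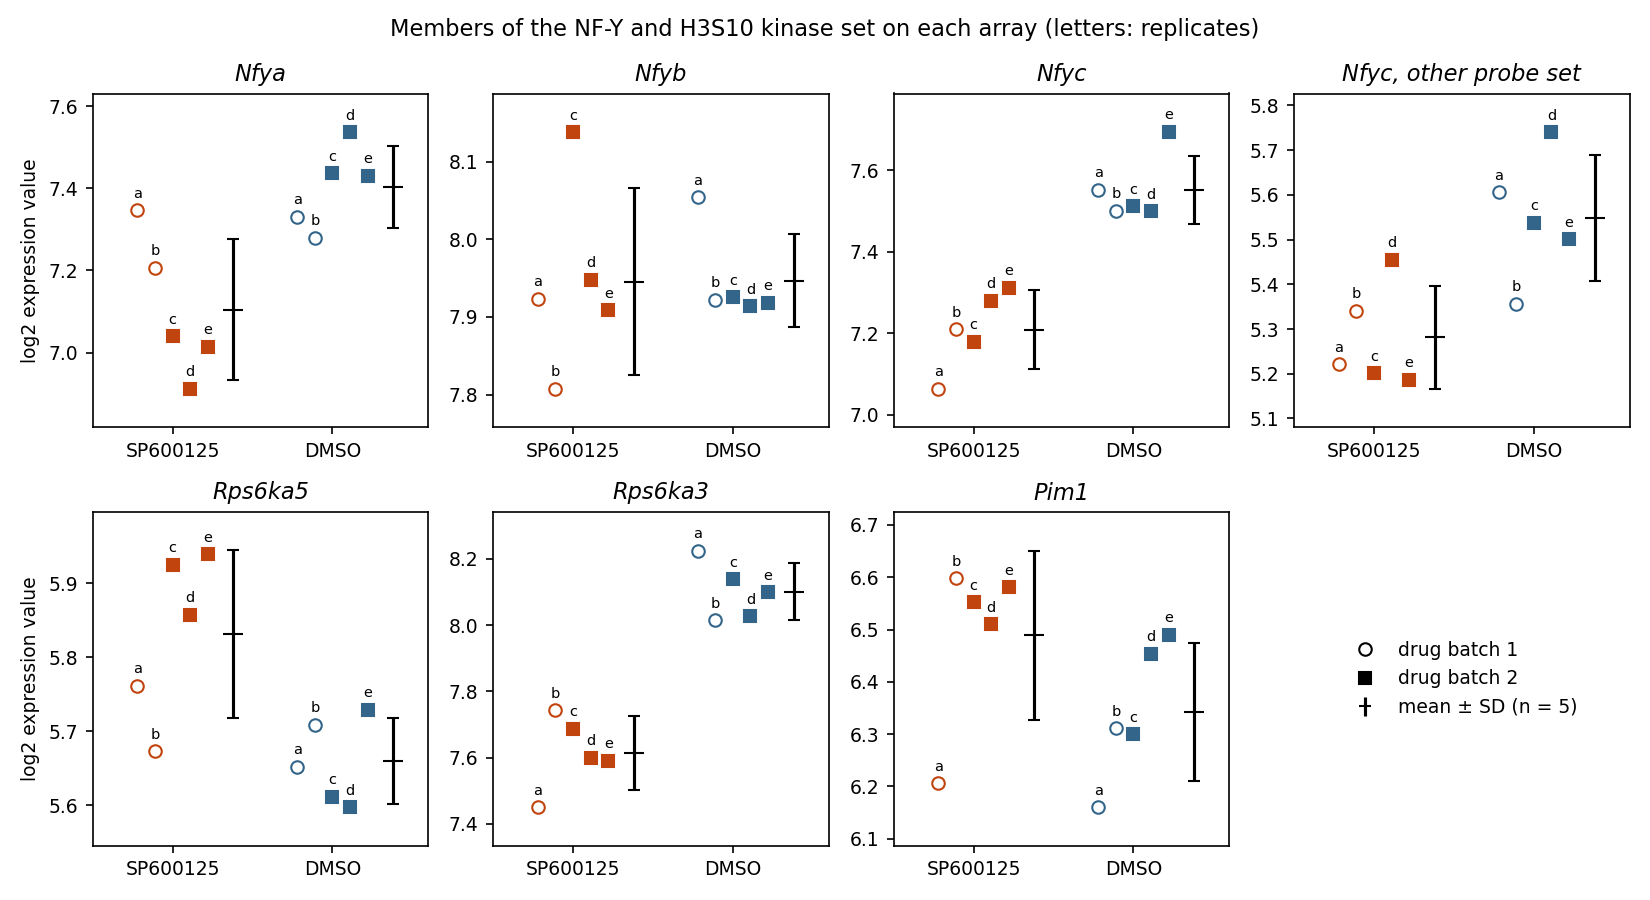
Log2 expression values of the 6 measured members and of the other Nfyc probe set on each SP600125 array (left, red) and DMSO array (right, blue). Letters name replicates, open circles are drug batch 1, filled squares are drug batch 2, and bars show the mean ± SD (n = 5). The groups separate fully for Rps6ka3 and for the first Nfyc probe set, and those of Nfya separate in batch 2 but not in batch 1.

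RSK2, the product of Rps6ka3, is activated by ERK and phosphorylates histone H3 and CREB, and loss of the human gene causes Coffin-Lowry syndrome, which includes intellectual disability. Rps6ka3 stood at 7.45, 7.74, 7.69, 7.60 and 7.59 on SP600125 arrays a to e, against 8.23, 8.02, 8.14, 8.03 and 8.10 on DMSO arrays a to e. Every SP600125 array was lower than every DMSO array, with a gap between the groups in both batches. The means were 7.61 ± 0.11 after SP600125 and 8.10 ± 0.09 after DMSO (SD, n = 5 each). The change was −0.49 (SE 0.07, 95% confidence interval −0.64 to −0.34, limma adjusted p = 0.000271, exact permutation p = 0.0167), and on a linear scale the signal fell by 28.6%. Batch 1 gave −0.52 (SE 0.14) and batch 2 gave −0.46 (SE 0.07). With both b arrays left out it was −0.54 and the same 4 members passed, among 48.7% of all genes, 31.6% lower and 17.1% higher. Rps6ka3 and Nfyc were separated the same way within both batches, as were 31.2% of all genes, and no member had all 5 SP600125 arrays above the DMSO arrays (6.65% of all genes).

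MSK1, the product of Rps6ka5, acts downstream of ERK and p38 and phosphorylates histone H3 at serine 10 and serine 28 at immediate early genes. Rps6ka5 had 5.76, 5.67, 5.92, 5.86 and 5.94 on SP600125 arrays a to e, against 5.65, 5.71, 5.61, 5.60 and 5.73 on DMSO arrays a to e. In batch 2 all SP600125 arrays were above all DMSO arrays, and in batch 1 the groups overlapped. The means were 5.83 ± 0.11 after SP600125 and 5.66 ± 0.06 after DMSO (SD, n = 5 each), a change of 0.17 (SE 0.06, limma adjusted p = 0.0398, exact permutation p = 0.0333). The call was narrow. It was lost without any 1 of 8 of the 10 arrays (adjusted p from 0.0532 to 0.0998), without the batch term (adjusted p = 0.0506) and with the replicate letter as a block (adjusted p = 0.0771), where 41.4% of all genes passed, 26.6% lower and 14.8% higher. The batch values were 0.04 (SE 0.12) for batch 1 and 0.26 (SE 0.07) for batch 2. The changes of Rps6ka3 and Rps6ka5 differed by −0.66 (exact permutation p = 0.0167, adjusted 0.0333 over the 4 pairs). Without DMSO replicate a, b or e or SP600125 replicate a, the adjusted p of this difference was 0.0667, again with fewer arrangements. After cyclic loess the difference was −0.42 (exact permutation, adjusted p = 0.0333). The 2 genes lie at different levels. Genes within 0.25 of the level of Rps6ka3 had a median change of −0.23, and those near Rps6ka5 one of 0.03. The part of level in the difference was not tested.

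Pim1 encodes a constitutively active kinase that is controlled mainly through its transcript, which STAT factors induce. It is known to phosphorylate histone H3 at MYC target genes. Its values were 6.21, 6.60, 6.55, 6.51 and 6.58 on SP600125 arrays a to e, against 6.16, 6.31, 6.30, 6.45 and 6.49 on DMSO arrays a to e. SP600125 replicate a lay well below the other 4 SP600125 arrays and within the DMSO range, and those 4 lay above every DMSO array. The means were 6.49 ± 0.16 after SP600125 and 6.34 ± 0.13 after DMSO (SD, n = 5 each), and the difference of 0.15 (SE 0.08, 95% confidence interval −0.02 to 0.31) did not pass (limma adjusted p = 0.126, exact permutation p = 0.117). Without SP600125 replicate a it passed, at 0.20 (limma adjusted p = 0.0415). Batch 1 gave 0.17 and batch 2 gave 0.13.

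The size of a change on these arrays went with the level of the gene, and the values of the members are read against that. The spread of log2 values over genes was narrower on SP600125 arrays (SD 1.63 to 1.71) than on DMSO arrays (SD 1.76 to 1.84). The median of olfactory receptor genes, which stand near background, was 3.86 to 3.95 on SP600125 arrays and 3.58 to 3.75 on DMSO arrays. The part of this narrower spread in the changes of the members was not tested. Genes with a mean log2 value from 7 to 8 had a median change of −0.22, with 60.6% of them lower and 2.94% higher. Genes from 5 to 6 had a median of 0.08, with 13.8% lower and 27.6% higher. Among the 1412 genes within 0.25 of the level of Rps6ka3 the median change was −0.23 and 62.6% fell, against its own −0.49. For genes at the level of Nfya the median was −0.22 and 59.1% fell, and for those at the level of Nfyc it was −0.22 and 61.2% fell. Nfyb, at 0.00, stood above the −0.23 of its 1305 level neighbours, of which 63.1% fell. Genes at the level of Pim1 had a median of −0.14, and 7.88% of them rose. At the level of Rps6ka5 the median was 0.03, and 21.9% rose. The 3 members that fell thus came from a range of levels in which most genes fell.

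**Figure D3:**
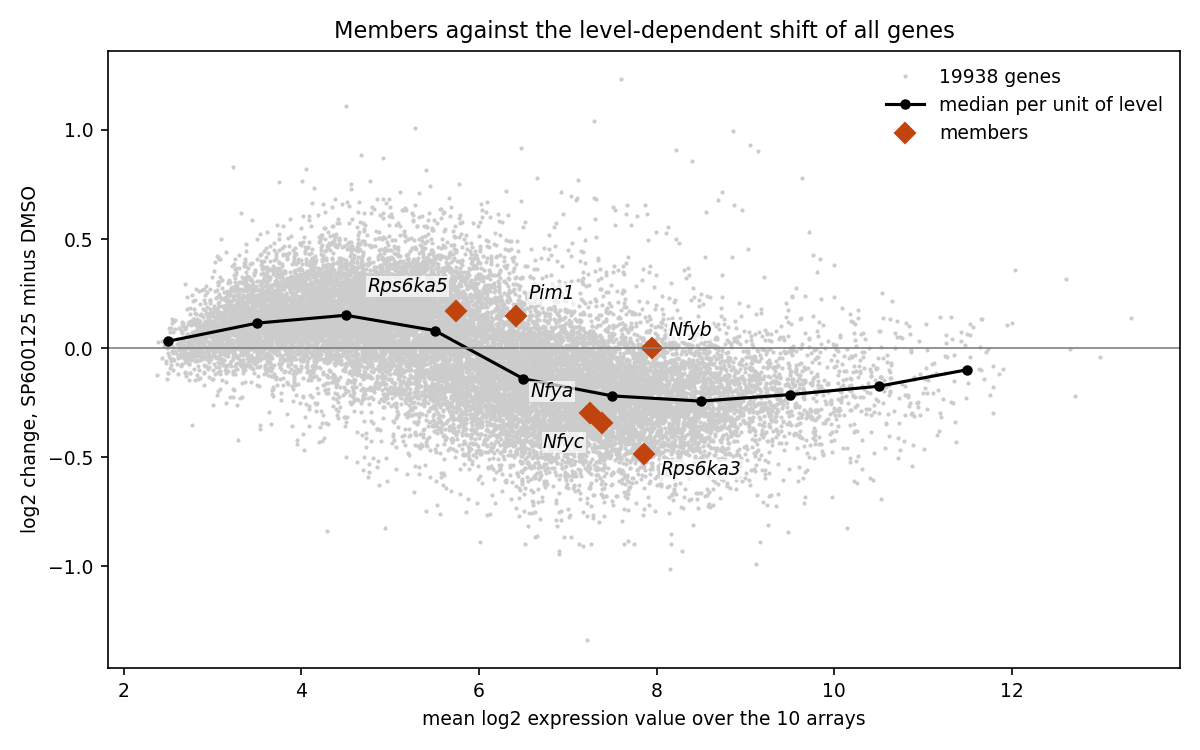
Log2 change (SP600125 minus DMSO) against the mean log2 value over the 10 arrays for 19938 genes (grey), with the median in each unit of level (black line) and the 6 members (red diamonds). Rps6ka3, Nfyc and Nfya lie below the line, Nfyb, Pim1 and Rps6ka5 above it.

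Rescaling the arrays kept the fall of Rps6ka3 and moved the calls of other members. Rps6ka3 changed by −0.59 to −0.30 over the deposited scale and 4 other scalings and passed in each (largest limma adjusted p = 0.00294, after cyclic loess). Nfyc passed after quantile normalization (−0.22, limma adjusted p = 0.0139) but not after cyclic loess (−0.17, limma adjusted p = 0.0564). Nfya passed in neither (−0.18, limma adjusted p = 0.107, and −0.13, limma adjusted p = 0.223). Nfyb had a value of −0.10 with arrays centred on all probe sets and of 0.19 after cyclic loess, and passed in no scaling. Pim1 passed after cyclic loess alone among the 5 scalings (0.21, limma adjusted p = 0.047). Rps6ka5 passed as deposited and with arrays centred on named genes (0.21), and in none of the other 3. Of all genes 30.0% passed after quantile normalization (22.5% lower, 7.51% higher) and 27.2% after cyclic loess (17.7% lower, 9.44% higher). The shares were 50.7% with centring on all probe sets (43.1% lower, 7.52% higher), which moved the median of all genes to −0.13 from the deposited −0.03, and 47.7% with centring on named genes (25.3% lower, 22.3% higher). The direction was the same in all 5 scalings for the members other than Nfyb.

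**Figure D4:**
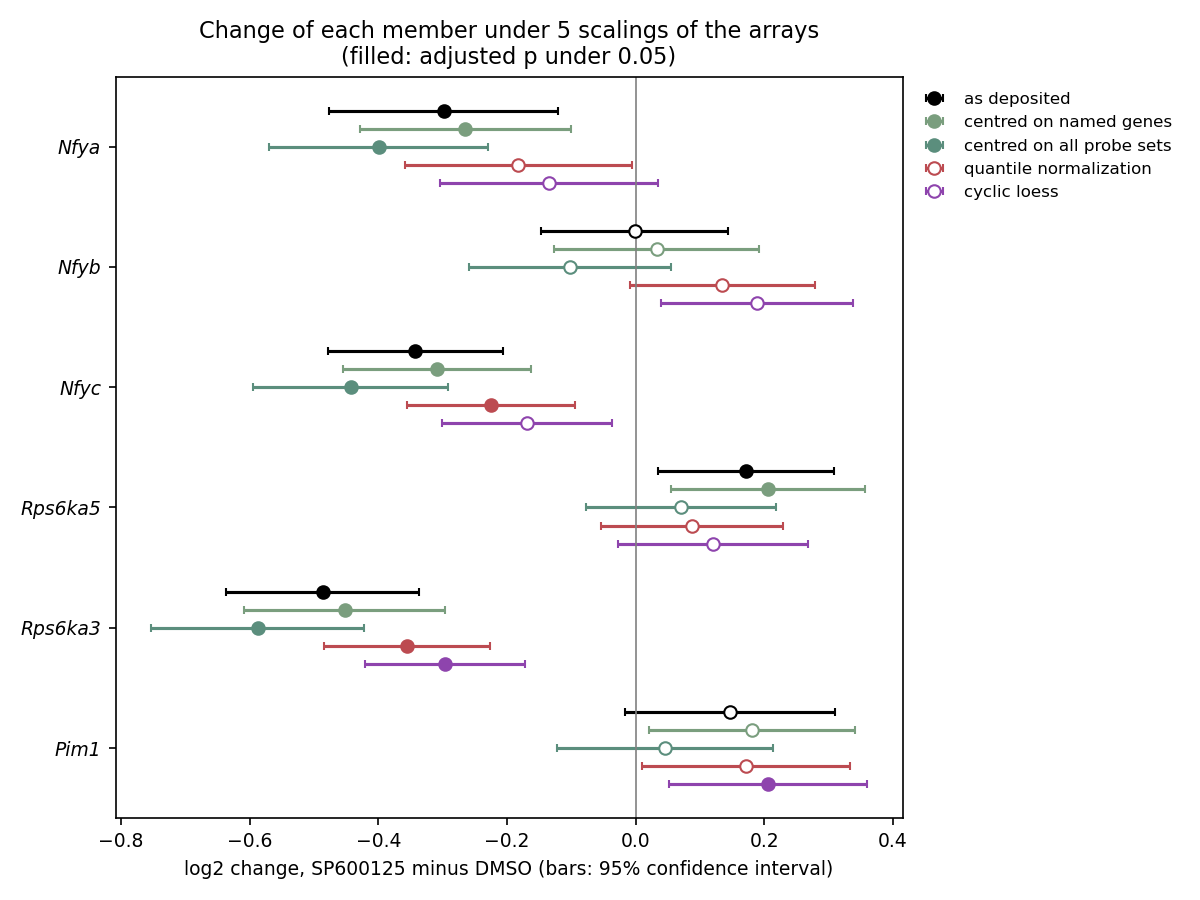
Log2 change (SP600125 minus DMSO) of each measured member with its 95% confidence interval, for values as deposited and 4 rescalings of the arrays. Filled points have an adjusted p under 0.05. All 5 points of Rps6ka3 are filled, and the points of Nfyb lie on both sides of 0.

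Genes around NF-Y were taken from written lists. Of 20 measured partner factors and co-activators, 1 rose, 10 fell and 9 did not pass, with a median of −0.17 against −0.03 for all genes and −0.22 for genes with levels from 7 to 8, the range of the list's median level, of which 60.6% fell. The share of the partners that fell was thus not above that of genes at their level. Srebf2, which encodes the sterol-responsive factor that works beside NF-Y at lipid genes, fell by 0.55 (SE 0.07, limma adjusted p = 0.00013). The histone acetyltransferase gene Kat2a fell by 0.45 (SE 0.08), Sp4, of the GC-box factor family, by 0.41 (SE 0.10), and Xbp1, a factor of the unfolded protein response, by 0.39 (SE 0.06). Of 29 measured genes with well known NF-Y sites in their promoters, 2 rose, 17 fell and 10 did not pass, with a median of −0.24, and their median level lay in the same range of 7 to 8. The collagen genes Col1a1 and Col1a2 fell most, by 0.69 (SE 0.07) and 0.61 (SE 0.06), followed by the sterol pathway enzyme genes Sqle (0.56, SE 0.08) and Fdps (0.50, SE 0.10). After cyclic loess 1 partner rose and 6 fell, and 2 target genes rose and 13 fell. Under that scaling 17.7% of all genes, whatever their level, fell and 9.44% rose. Of 11 other CCAAT binders and histone-fold relatives none rose, 2 fell and 9 did not pass, where 41.1% of genes with levels from 6 to 7, the range of their median level, fell. The 2 were Dr1, the histone-fold repressor NC2β (−0.38, SE 0.08), and Pole4 (−0.27, SE 0.07), a DNA polymerase epsilon subunit, and all 5 measured genes of the C/EBP family stayed short of the threshold. After cyclic loess 3 of the 11 fell, but Pole4 did not pass (−0.08, limma adjusted p = 0.343), nor did it after quantile normalization (−0.14, limma adjusted p = 0.121).

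Genes with and without a CCAAT box in an annotated window were set side by side. Of 15614 tested genes with a window, 6509 held a box in at least 1 window. Of these 32.0% fell and 15.7% rose, against 29.8% and 17.2% of the genes without a box. Among genes with a mean log2 value from 7 to 8 the shares that fell were 62.3% with a box and 59.7% without, and from 8 to 9 they were 62.9% and 66.9%. At lower levels more genes with a box fell, 16.3% against 12.8% from 5 to 6, 4.70% against 2.24% from 4 to 5 and 1.30% against 0.391% from 3 to 4. The shares from 3 to 4 rest on 10 of 769 genes with a box and 4 of 1024 without. From 6 to 7 the shares with and without a box were 41.2% and 40.9%, and from 9 to 10 they were 65% and 66.8%. From 10 to 11 they were 57.8% and 55.6%. From 11 to 12 they were 40% of 20 genes and 19.2% of 26. The share that fell was thus higher with a box at each level given except 8 to 9 and 9 to 10, in places by little. The share that rose was also higher with a box from 4 to 5 (37.6% against 36.1%). It was 1.83% against 1.73% from 8 to 9 and 3.13% against 0% from 10 to 11. From 11 to 12 no gene of either kind rose, and at the other levels given the share that rose was lower with a box. These shares are a description over genes, which are not independent replicates.

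Around the kinases, Aurkc stood apart. Of 9 further kinases reported for serine 10, 1 rose, 7 fell and 1 did not pass, with a median of −0.32. Of all genes with levels from 8 to 9, the range of this list's median level, 66.3% fell and 2.09% rose (median −0.24). From 6 to 7, the range in which Aurkc itself lay, 7.23% of all genes rose. The one that rose was Aurkc, the Aurora kinase known from germ cells, at 7.12 ± 0.13 after SP600125 and 6.57 ± 0.11 after DMSO (SD, n = 5 each). Its change was 0.55 (SE 0.07, limma adjusted p = 0.000105), made up of 0.54 for batch 1 and 0.56 for batch 2. Aurka, the mitotic spindle kinase gene, fell by 0.24 (SE 0.09), and Aurkb, which encodes the main mitotic kinase for serine 10, was the one that did not pass (−0.01, SE 0.06, limma adjusted p = 0.895). The largest falls were those of the JNK genes Mapk10 (−0.56, SE 0.09) and Mapk9 (−0.45, SE 0.09) and of Cdk8 (−0.34, SE 0.06), a Mediator kinase. With the mean of a gene's probe sets in place of the brightest, Mapk10 was at −0.36, Mapk9 at −0.45 and Aurkc at 0.51. After cyclic loess 1 of the 9 rose and 3 fell, where 9.44% of all genes, whatever their level, rose and 17.7% fell.

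Among the kinases listed as upstream of RSK2 and MSK1, Mapk12 alone rose. Of 9 measured 1 rose, 6 fell and 2 did not pass, with a median of −0.24. Of genes with levels from 6 to 7, the range of the list's median level, 41.1% fell and 7.23% rose (median −0.14). Map2k1 had a level from 8 to 9, where 66.3% of all genes fell. Map2k2, Pdpk1 and Mapk14, which also fell, lay from 7 to 8, where 60.6% did, and the rest of the list lay below 7. Map2k1 and Map2k2, which encode the kinases that activate ERK, fell (−0.54, SE 0.06, and −0.40, SE 0.07), as did Pdpk1 (−0.30, SE 0.08), which encodes the kinase that completes RSK activation. Mapk12, the p38 gamma gene, rose by 0.26 (SE 0.06). Of 6 measured paralogs and partners of the member kinases none rose and 2 fell, Rps6ka6 (−0.34, SE 0.09), the RSK4 gene, and Ikbkb (−0.24, SE 0.06), which encodes the partner of the Chuk product. The median level of these 6 also lay in the range of 6 to 7, where 41.1% of all genes fell. After cyclic loess 1 upstream kinase rose and 3 fell, and none of the 6 paralogs and partners passed. Under that scaling 17.7% of all genes, whatever their level, fell and 9.44% rose. Pdpk1 did not pass after cyclic loess (−0.11, limma adjusted p = 0.182) or after quantile normalization (−0.17, limma adjusted p = 0.0655). After cyclic loess Rps6ka6 was at −0.15 (limma adjusted p = 0.135) and Ikbkb at −0.15 (limma adjusted p = 0.0594).

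Substrates, readers and erasers of the mark gave the following counts. Of 10 RSK and MSK substrate genes none rose and 2 fell. These were Creb1 (−0.27, SE 0.05), the gene of the activity-regulated factor CREB, and Tsc2 (−0.24, SE 0.07). After cyclic loess neither passed, and 1 of the 10 rose and none fell, where 9.44% of all genes rose and 17.7% fell. With quantile normalization 1 of the 10 also rose and none fell, where 7.51% of all genes rose and 22.5% fell. Of all genes with levels from 7 to 8, the range of this list's median level, 60.6% fell and 2.94% rose. Of 15 phosphatases and readers of phosphorylated serine 10 none rose, 11 fell and 4 did not pass, with a median of −0.27, where 64.4% of genes with levels from 9 to 10, the range of the list's median level, fell (median −0.21). The falls were largest for the 14-3-3 genes Ywhag (−0.56, SE 0.10) and Ywhah (−0.54, SE 0.07), whose products bind the mark, and for Cbx5 (−0.47, SE 0.06), which encodes the heterochromatin protein that the mark displaces. Ppp1ca, a catalytic subunit of the phosphatase that removes it, fell by 0.33 (SE 0.06). After cyclic loess 8 of the 15 fell, where 17.7% of all genes, whatever their level, fell. Of 12 regulators of Pim1 and genes that share its STAT control 1 rose, 4 fell and 7 did not pass. Their median level also lay in the range of 7 to 8, where 60.6% of all genes fell and 2.94% rose. Socs2, a STAT-induced inhibitor of cytokine signalling, rose by 0.72 (SE 0.06, limma adjusted p = 1.11e-05), while Bcl2l1 fell by 0.35 (SE 0.06), Jak1 by 0.29 (SE 0.07) and Mcl1 by 0.20 (SE 0.06). Taken as the mean of its probe sets, Socs2 rose by 0.55. After cyclic loess 2 of the 12 rose and 2 fell, and Jak1 (−0.14, limma adjusted p = 0.115) and Mcl1 (−0.08, limma adjusted p = 0.308) did not pass.

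**Figure D5:**
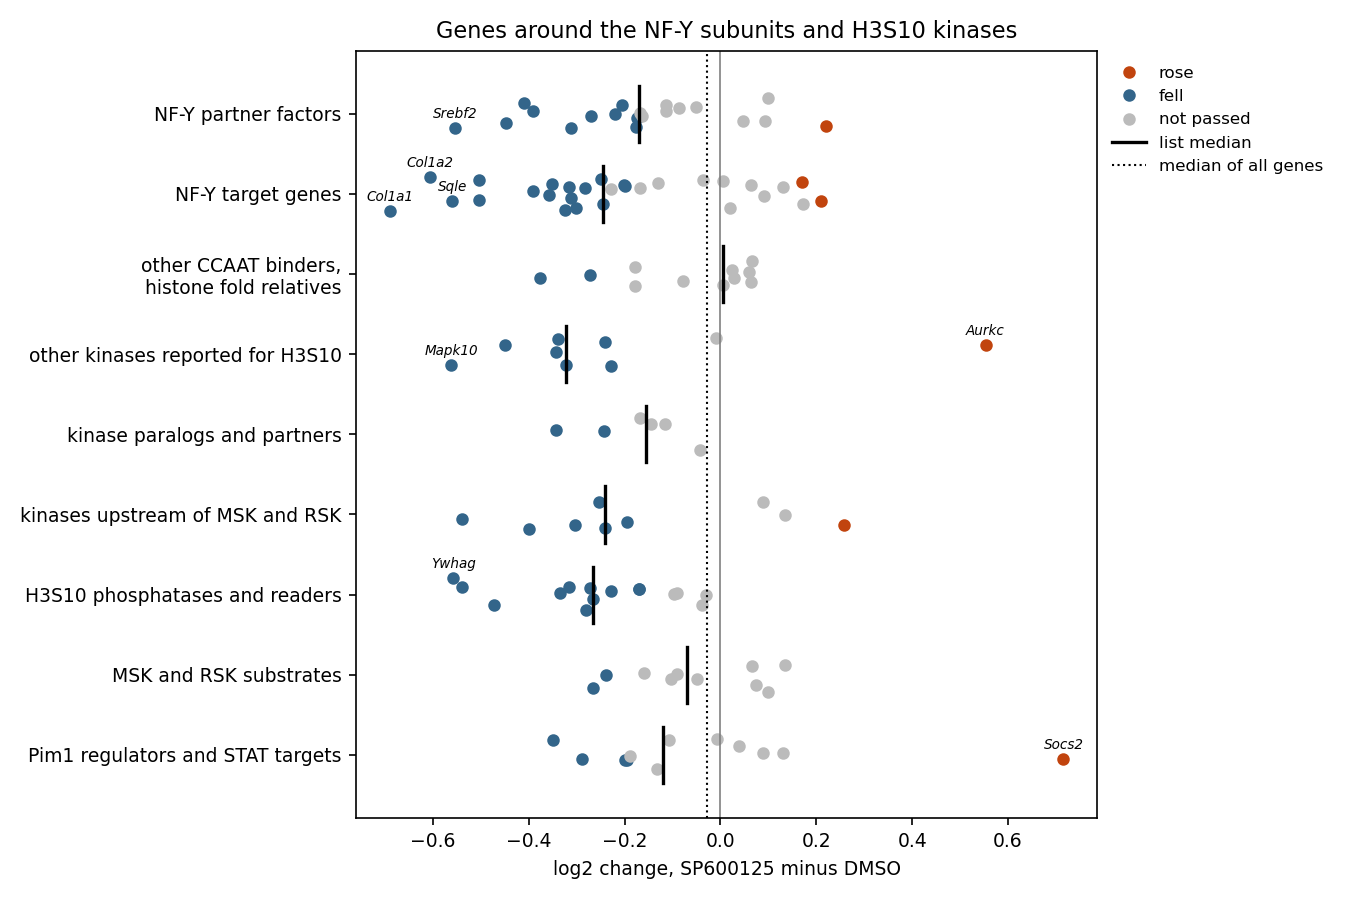
Log2 change (SP600125 minus DMSO) of the measured genes in 9 lists around the members, coloured by call, with the list median (bar) and the median of all genes (dotted line). Genes changed by more than 0.55 are named. Aurkc and Socs2 lie far to the right of their lists.

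Genes whose values ran most like those of each member over the 10 arrays were found by Pearson correlation. The arrays share the treatment contrast, so these values describe the 2 groups as much as the genes. Rps6ka3 ran with Gnptab (r = 0.992), which encodes a lysosomal enzyme-tagging transferase, and Zfhx4 (r = 0.99), a homeobox zinc finger gene. Nfyc ran with Vps53 (r = 0.97) and the spliceosome gene Snrpa1 (r = 0.968), and Nfya with Usf3 (r = 0.947) and the lipoyl transferase gene Lipt2 (r = 0.947). Nfyb ran with the kinase gene Nek7 (r = 0.961) and with Atf7 (r = 0.88), a factor of the CREB and AP-1 superfamily. Rps6ka5 ran with the repressor gene Hbp1 (r = 0.961), which rose by 0.48 (SE 0.09), and with Pla2g7 (r = 0.957). Pim1 ran with Ang5 (r = 0.917) and Asap3 (r = 0.914).

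The cultures held neuronal transcripts and those of other cells. All 12 pan-neuronal markers lay above the 95th percentile of 1027 olfactory receptor genes in DMSO samples (5.26), as did 8 of 8 progenitor, 7 of 8 astrocyte, 7 of 8 oligodendrocyte and 6 of 8 fibroblast and endothelial markers, but 2 of 8 microglia and macrophage and 2 of 6 pluripotency markers. Of the 12 pan-neuronal markers 11 fell, and their summed linear signal ran from 5994 to 8714 on SP600125 arrays, against 7449 to 9454 on DMSO arrays. Of 8 fibroblast and endothelial markers 3 fell and none rose, and the sum ran from 4353 to 4854 on SP600125 arrays, against 5578 to 6025 on DMSO arrays. Col1a1, which is also on the list of NF-Y targets, is one of the 3, while Dcn, a fibroblast proteoglycan gene, stood at 10.5 in both groups. Of 8 astrocyte markers 4 fell and 1 rose, with sums of 3996 to 4671 on SP600125 arrays and 4263 to 4945 on DMSO arrays. The sums of SP600125 arrays lay below those of DMSO arrays without overlap for progenitor markers (7051 to 7500, against 7693 to 8161, 4 of 8 lower) and oligodendrocyte markers (1607 to 1766, against 1960 to 2101, 5 of 8 lower). Dim marker sets went the other way. Of 8 microglia and macrophage markers 4 rose and none fell, with sums of 231 to 266 on SP600125 arrays and 193 to 231 on DMSO arrays, and of 6 pluripotency markers 3 rose and none fell, with sums of 254 to 287 on SP600125 arrays and 180 to 232 on DMSO arrays. The part of these shifts in the results for the members was not tested, and in RNA from whole cultures fewer cells of a type and less RNA per cell cannot be told apart. At levels from 4 to 5 36.2% of all genes rose, and from 5 to 6 27.6%, the ranges of the group medians of both dim sets. Of all genes 41.1% fell at levels from 6 to 7 and 60.6% from 7 to 8. The share was 66.3% from 8 to 9 and 64.4% from 9 to 10. The group medians of the other marker sets lay in these ranges. The part of the narrower spread of log2 values on SP600125 arrays in the marker shifts was not tested. Correlations over probe sets ran from 0.987 to 0.993 within a group and from 0.976 to 0.990 between groups, and the 2 b arrays had the lowest mean correlation with their own groups. Precision is limited throughout by the small number of arrays.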

How the data were processed

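Total RNA was labelled with a whole-transcript assay and hybridised, 1 Affymetrix array per sample, per the labels' protocols and titles. The values are the authors' deposited log2 expression values, and the submitters' processing notes name oligo 1.14.0. That the scale is log2 was read from their range (1.90 to 13.8). For background correction, normalization and summarization, no method is given in the sources used here. Values were used as deposited. Of 35556 probe sets 21789 had 1 symbol, 1621 several and 12146 none in the platform annotation used, which can be old, and 21698 of those with 1 symbol matched RefSeq by gene identifier.

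A linear model was fitted in limma 3.58.1 under R 4.3.3 (lmFit, then eBayes, two-sided tests, 7 residual degrees of freedom), with treatment and drug batch (from the labels) as terms and Benjamini-Hochberg adjustment over all 19938 genes. SEs and intervals are limma's moderated ones. Differences between 2 members' changes used the exact permutation of treatment within batch, with 4 of 6 written pairs measurable. The fit was tested on simulated data. Members and lists (9 lists, 129 genes written, 118 measured) were chosen with earlier results of these data known. Named genes were all members, up to 4 genes per list that passed with the greatest absolute change (the greatest change where none passed), and the 2 genes most correlated with each member; Hbp1's change, Aurka and Aurkb were named after their values were seen. Same-lettered arrays did not deviate together (correlations of deviations from group means −0.21 to 0.10), so letters were not taken as pairs. Scaling, filters, batch, probe set choice and left-out arrays were varied.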

Additional observations from a re-analysis of the deposited data

Results flagged for a closer look

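Among 72 groups of 5 arrays (the members and the named genes of the lists, in each treatment) 7 held an array far from the other 4 by Dixon's criterion, which chance meets in about 1 group in 20. Of the members, Nfyb stood at 8.05 on DMSO replicate a, against 7.91 to 7.93 on the other DMSO arrays. Nfyc stood at 7.69 on DMSO replicate e, against 7.50 to 7.55. Pim1 stood at 6.21 on SP600125 replicate a, against 6.51 to 6.60 on the other SP600125 arrays. The 4 others were on b arrays. Col1a1 was at 10.4 on SP600125 replicate b, above the others (10.09 to 10.16), and Ywhah was at 10.8 on SP600125 replicate b, above the others (10.51 to 10.58). Ywhah was also low on DMSO replicate b, at 10.95 against 11.16 to 11.21, and Jak1 was at 9.16 there, against 9.32 to 9.37 on the other DMSO arrays.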

How the results depend on the processing

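Up to 22 other settings were run for each result. They include the omission of both b arrays, which, like the use of the other Nfyc probe set, was chosen after seeing the data. The count of all genes past the threshold was 9351, and it was 5991 after quantile normalization, 5419 after cyclic loess and 1 in drug batch 1 alone (2 arrays per group). Members past the threshold numbered 4, and 2, 2 and 0 under those settings. The 66 list calls became 0 in drug batch 1 alone. Rps6ka5 was at 0.17 without the batch term (limma adjusted p = 0.0506), 0.17 with trended and robust variances (0.0547), 0.087 after quantile normalization (0.341), 0.12 after cyclic loess (0.208), 0.071 centred on all probe sets (0.423) and 0.037 in batch 1 alone. Nfya was at −0.18 after quantile normalization, −0.13 after cyclic loess and −0.029 in batch 1 alone. Nfyc was at −0.17 after cyclic loess and −0.39 in batch 1 alone, Rps6ka3 at −0.52 in batch 1 alone, and Pim1, now past the threshold, at 0.21 after cyclic loess. The cause was not tested. With the replicate letter as a block, which same-lettered arrays gave no ground for (e alone correlated best with its own letter), 8252 genes and 3 members passed, and Rps6ka5 did not (0.17, adjusted p = 0.0771). Leaving out 1 array gave 7673 to 9687 genes, 3 to 4 members and 59 to 66 list calls. The changes then ran from 0.15 to 0.21 for Rps6ka5, 0.083 to 0.20 for Pim1, −0.36 to −0.25 for Nfya, −0.37 to −0.31 for Nfyc, −0.53 to −0.44 for Rps6ka3 and −0.05 to 0.04 for Nfyb. The difference of Nfyb and Nfyc ran from 0.27 to 0.39 and that of Rps6ka3 and Rps6ka5 from −0.73 to −0.61 (−0.42 after cyclic loess). For the named list genes, 615 of 660 values kept direction and side of the threshold, 45 no longer passed and 0 reversed. Dim genes limit what can be seen, since 95% of olfactory receptor genes lay below 5.26 in DMSO samples.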
